A study of Mus musculus with 9 samples.

Results

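The genes described here are 7 enzymes that build triglyceride in the cell: Mogat2, Dgat1, Dgat2, Agpat2, Gpat3, Lpin2 and Lpin3. A probe set, the group of short probes that reads 1 transcript on the array, was taken as theirs when the platform annotation gave it exactly 1 gene symbol and that symbol was one of the 7. That left 12 of the 45037 probe sets analysed and all 7 genes, of 18193 genes measured. Of several probe sets for 1 gene, the one with the highest mean of log2(signal + 16) stood for it. RNA came from mucosa scraped from the small intestine. The mice, males of the inbred strain C57BL/6J, were 9 weeks old when the feeding began and were fed for 2 weeks. Each intestine had been divided into 3 parts of equal length, here SI3 (distal, furthest from the stomach), SI2 (middle) and SI1 (proximal). All mice ate a high-fat diet. In HF-PO the fat was palm oil, in HF-OO olive oil and in HF-SO safflower oil, and the labels' P/S value was lowest for palm oil and highest for safflower oil. RNA of 6 mice was pooled for each diet and segment and read on 1 array, which gives 9 arrays, 3 pools per segment and 1 pool per diet and segment. A low-fat group was not analysed here, so every group shares the high-fat feeding.

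Enterocytes take up the monoacylglycerol and fatty acids that digestion releases and rebuild triglyceride from them for export in chylomicrons. In the monoacylglycerol route, which carries most of this flux after a fatty meal, an acyl-CoA:monoacylglycerol acyltransferase (MGAT) makes diacylglycerol and an acyl-CoA:diacylglycerol acyltransferase (DGAT) adds the last fatty acid. In the glycerol 3-phosphate route, found in most tissues, glycerol 3-phosphate is acylated by a GPAT and then by an AGPAT, a lipin removes the phosphate, and the diacylglycerol formed goes to the same DGAT step.

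All values are signals of the MAS5 algorithm, a linear measure of probe brightness that the authors scaled to the same trimmed mean on every array. The median signal per array ran from 94.4 to 105.9 and the upper quartile from 440.4 to 472.3, and the number of arrays limits the precision. Markers of position differed between the ends: all 8 markers of the proximal intestine that were tested were lower in SI3 than in SI1, and all 8 distal markers were higher. Between SI3 and SI2, 5 of the 8 proximal markers were lower and 1, Slc40a1, was higher, while all 8 distal markers were higher. The marker lists were chosen with earlier results of these data known, so these counts are no independent check of the labels. Signals of the probe sets that stand for the 7 genes ran from 1157 to 19597, and all 7 passed the filter for testing. The signal of 1 probe set was not set against that of another, because probes differ in brightness at equal RNA.

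Along the intestine, 3 of these enzymes differed by segment and the other 4 did not pass the test. Dgat2 was lower in SI3 than in SI1 and SI2, and Gpat3 was higher in SI2 than in SI1. Lpin2 was higher in SI3 than in SI1 by its brightest probe set, while its dimmest probe set was called lower. Segments were compared with limma, a linear model per probe set, on log2(signal + 16) with the diet pool as a block, and an adjusted p under 0.05 by the Benjamini-Hochberg method over 22519 probe sets counted as a call. Between SI3 and SI1, 1 of the 7 was called higher and 1 lower, where 44.3% of all probe sets tested were called, 25% higher and 19.2% lower. Between SI2 and SI1, 1 of 7 was called, and higher, against 15% of all probe sets called and 8.07% called higher. Between SI3 and SI2, 1 of 7 was called, and lower, against 21.3% called and 10.8% called lower. A moderated F test over the 3 segments called 3 of 7, against 40.7% of all. The median log2 difference of the 7 genes was -0.02 for SI3 minus SI1, 0.05 for SI2 minus SI1 and -0.19 for SI3 minus SI2, and the medians of all probe sets tested were 0.08, 0.03 and 0.03. Pools of a segment also differ in diet, so the p-values measure spread between pools that includes any difference of the segment effect between diets.

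**Figure D1:**
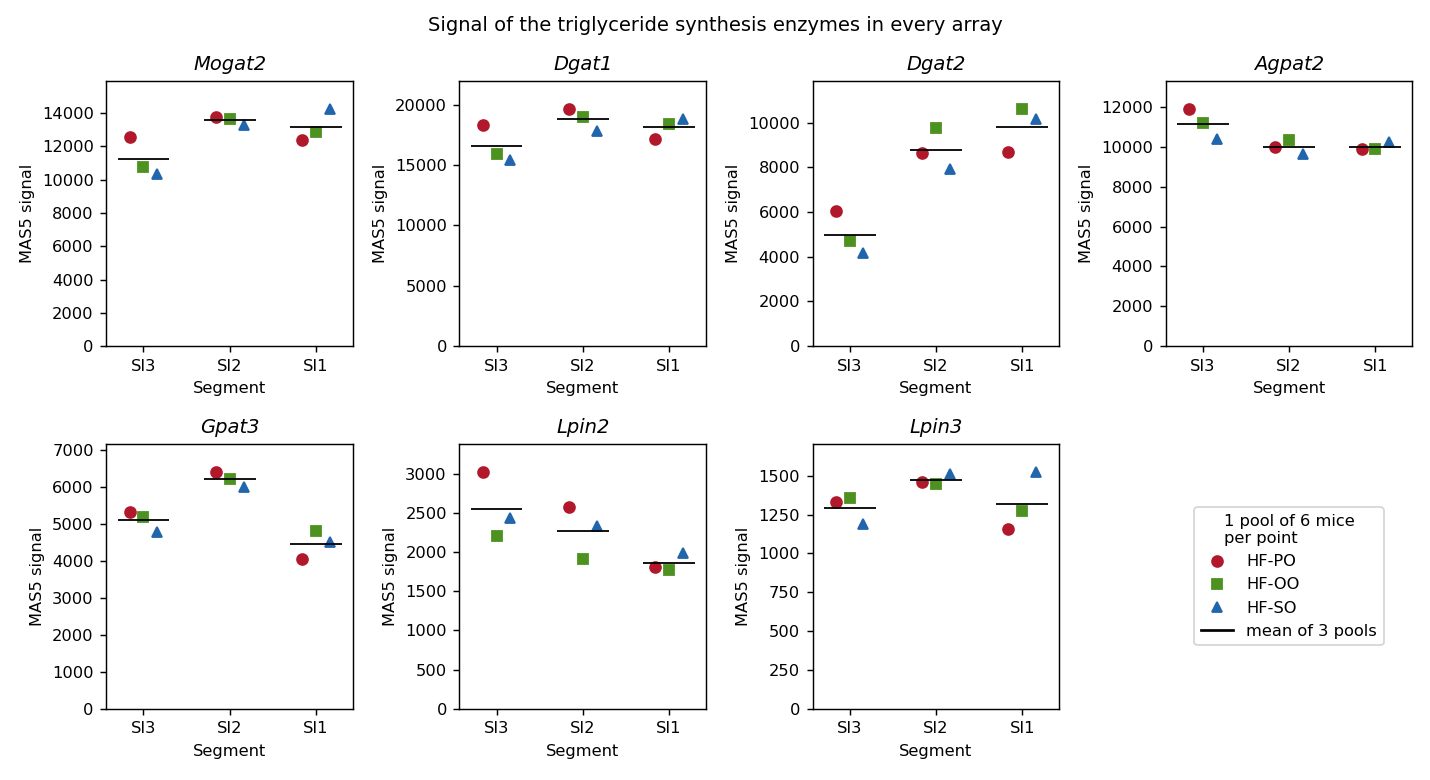
MAS5 signal of the 7 triglyceride synthesis enzymes (vertical axes, linear, from 0) in SI3, SI2 and SI1, with 1 point per array (a pool of 6 mice, coloured by diet) and a bar at the mean of 3 pools. Dgat2 is low in SI3, Gpat3 is highest in SI2, Lpin2 is higher in SI3 than in SI1, and the other enzymes range by at most 1.38-fold over the 9 arrays.

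Mogat2 encodes the MGAT of the intestine. Its signal was 12564, 10776 and 10319 in SI3 of the HF-PO, HF-OO and HF-SO pools, against 13748, 13664 and 13287 in SI2 and 12362, 12851 and 14224 in SI1. The 3 SI3 pools lay below the 3 SI2 pools, and the palm oil pool of SI3 lay within the range of SI1. Neither difference passed the test: SI3 minus SI1 was -0.23 on the log2 scale (95% interval -0.48 to 0.02, limma adjusted p = 0.122) and SI3 minus SI2 was -0.28 (-0.53 to -0.02, limma adjusted p = 0.111). The call depended on how the variance was modelled, since SI3 minus SI2 passed with a variance trend on expression (limma adjusted p = 0.0279) and with a stricter filter (limma adjusted p = 0.0444), and SI3 minus SI1 passed with the trend (limma adjusted p = 0.0386). SI2 minus SI1 was 0.05, with an interval from -0.21 to 0.30.

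Dgat2 encodes the DGAT that is best known for making triglyceride for storage in liver and fat tissue. Its signal was 6058, 4720 and 4181 in SI3 of the HF-PO, HF-OO and HF-SO pools, against 8648, 9751 and 7908 in SI2 and 8702, 10585 and 10136 in SI1. Every SI3 pool lay below every SI2 and SI1 pool, and SI2 overlapped SI1. Means were 4986 ± 966 in SI3, 8769 ± 927 in SI2 and 9808 ± 984 in SI1 (SD, n = 3 pools each). Dgat2 thus fell 1.98-fold in SI3 relative to SI1, a log2 difference of -0.99 with an SE of 0.15 (limma adjusted p = 0.00217), and 1.77-fold relative to SI2 (limma adjusted p = 0.0104). All 3 pools moved the same way: SI3 minus SI1 was -0.52 in the HF-PO pool, -1.16 in the HF-OO pool and -1.27 in the HF-SO pool. A second Dgat2 probe set gave 3717, 2645 and 2316 in SI3, against 5483, 6053 and 4938 in SI2 and 5807, 7355 and 6596 in SI1. It fell by 1.20 relative to SI1 (limma adjusted p = 0.00159) and by 0.94 relative to SI2 (limma adjusted p = 0.0101). The fall against SI1 stayed past the threshold in all 10 alternative settings, with log2 differences from -1.22 to -0.84, whereas the fall against SI2 missed it without the HF-OO pool (limma adjusted p = 0.112), without the HF-SO pool (0.0724) and with no filter (0.0662).

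Dgat1 encodes the other DGAT, an unrelated protein that performs the same reaction in the endoplasmic reticulum and is highly expressed in the small intestine. Its signal was 18327, 15922 and 15404 in SI3 of the HF-PO, HF-OO and HF-SO pools, against 19597, 18937 and 17814 in SI2 and 17178, 18390 and 18796 in SI1. The segments overlapped in every pairing, and the palm oil pool of SI3 was within the range of both other segments. No difference was called: SI3 minus SI1 was -0.13 (95% interval -0.37 to 0.10, limma adjusted p = 0.308), SI2 minus SI1 was 0.05 (-0.18 to 0.28) and SI3 minus SI2 was -0.19 (-0.42 to 0.05). A second probe set annotated to Dgat1, with far dimmer signal, gave larger differences. It stood at 508, 572 and 564 in SI3, against 736, 645 and 814 in SI2 and 911, 1064 and 961 in SI1, so that no 2 segments overlapped. It fell by 0.82 in SI3 relative to SI1 (SE 0.11, limma adjusted p = 0.00137) and by 0.40 relative to SI2 (limma adjusted p = 0.0440). Which Dgat1 transcripts the 2 probe sets read was not examined here, so the Dgat1 result is that of its brighter probe set.

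Mogat2 and Dgat2 are neighbours on chromosome 7, with 0 annotated genes between them in the RefSeq annotation of GRCm38.p6. Both had their lowest mean in SI3, and so did Dgat1 and Lpin3. The sizes differed between Mogat2 and Dgat2 in each pool. For Mogat2, SI3 minus SI1 was 0.02 in the HF-PO pool, -0.25 in the HF-OO pool and -0.46 in the HF-SO pool. For Dgat2 the values ran from -0.52 to -1.27, as given above. The 5 other enzymes lie on other chromosomes, Dgat1 on chromosome 15, Gpat3 on 5, Lpin2 on 17, and Agpat2 and Lpin3 on 2.

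Gpat3 encodes a GPAT of the endoplasmic reticulum, which starts the glycerol 3-phosphate route. Its signal was 5322, 5190 and 4793 in SI3 of the HF-PO, HF-OO and HF-SO pools, against 6410, 6219 and 6011 in SI2 and 4048, 4818 and 4525 in SI1. The SI2 pools lay above all others, and the lowest SI3 pool lay within the range of SI1. Means were 6213 ± 200 in SI2 and 4464 ± 389 in SI1 (SD, n = 3 pools each), a rise of 1.39-fold with a log2 difference of 0.48 and an SE of 0.10 (limma adjusted p = 0.0203). Within pools the rise was 0.66 in HF-PO, 0.37 in HF-OO and 0.41 in HF-SO. This call rested on all 3 pools, since leaving out any 1 of them raised the adjusted p to between 0.103 and 0.112, and it was also lost with no filter (0.122). SI3 averaged 5102 ± 275, and SI3 minus SI2 was -0.28 with no overlap (95% interval -0.51 to -0.06, limma adjusted p = 0.0783), while SI3 minus SI1 was 0.19 (-0.03 to 0.42, limma adjusted p = 0.142). The difference from SI2 passed with a variance trend (limma adjusted p = 0.0156) and with a stricter filter (0.0264).

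Agpat2 encodes an AGPAT that turns lysophosphatidic acid into phosphatidic acid. Its signal was 11875, 11200 and 10405 in SI3 of the HF-PO, HF-OO and HF-SO pools, against 9985, 10345 and 9622 in SI2 and 9871, 9912 and 10227 in SI1. All SI3 pools lay above all SI2 and SI1 pools, although the lowest SI3 and highest SI2 pools were close. The difference did not pass: SI3 minus SI1 was 0.16 (95% interval -0.05 to 0.36, limma adjusted p = 0.183) and SI3 minus SI2 was also 0.16 (-0.04 to 0.36, limma adjusted p = 0.234). Of all probe sets tested, 55.4% had no overlap between SI3 and SI1 and 40.7% none between SI3 and SI2. The share between SI2 and SI1 is not given here. The lack of overlap there for Gpat3 and the second Dgat1 probe set is therefore a description only. Agpat2 had the narrowest range over the 9 arrays of the 7 enzymes, 1.23-fold.

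Lpin2 and Lpin3 encode lipins, phosphatases that release diacylglycerol from phosphatidic acid. The Lpin2 signal was 3018, 2209 and 2434 in SI3 of the HF-PO, HF-OO and HF-SO pools, against 2574, 1912 and 2333 in SI2 and 1809, 1770 and 1989 in SI1. Every SI3 pool lay above every SI1 pool, and SI2 overlapped both. Lpin2 rose 1.36-fold in SI3, with 2554 ± 418 in SI3 and 1856 ± 117 in SI1 (SD, n = 3 pools each) and a log2 difference of 0.45 with an SE of 0.11 (limma adjusted p = 0.0169). The rise was 0.73 in the HF-PO pool, 0.32 in the HF-OO pool and 0.29 in the HF-SO pool, and leaving out any 1 pool ended the call, with adjusted p between 0.0555 and 0.0841. No rise was called in the 3 dimmer probe sets annotated to Lpin2. Their SI3 minus SI1 differences were 0.23 (limma adjusted p = 0.105), -0.17 (0.313) and -0.61 (0.0364). The last, a called fall, came from the dimmest of them. That one read 153.9, 185.9 and 161.5 in SI3 of the HF-PO, HF-OO and HF-SO pools, against 235.2, 172.6 and 149.9 in SI2 and 210.9, 330.8 and 258.3 in SI1, so its SI3 pools all lay below its SI1 pools. The direction for Lpin2 therefore holds for its brightest probe set, and which transcripts each of the 4 reads was not examined here. Lpin3 stood at 1330, 1358 and 1192 in SI3, against 1459, 1446 and 1512 in SI2 and 1157, 1276 and 1524 in SI1. SI3 lay below SI2 without overlap and within the range of SI1, and no difference was called: SI3 minus SI1 was -0.02 (95% interval -0.30 to 0.26), SI2 minus SI1 was 0.17 (-0.11 to 0.44) and SI3 minus SI2 was -0.19 (-0.47 to 0.09).

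**Figure D2:**
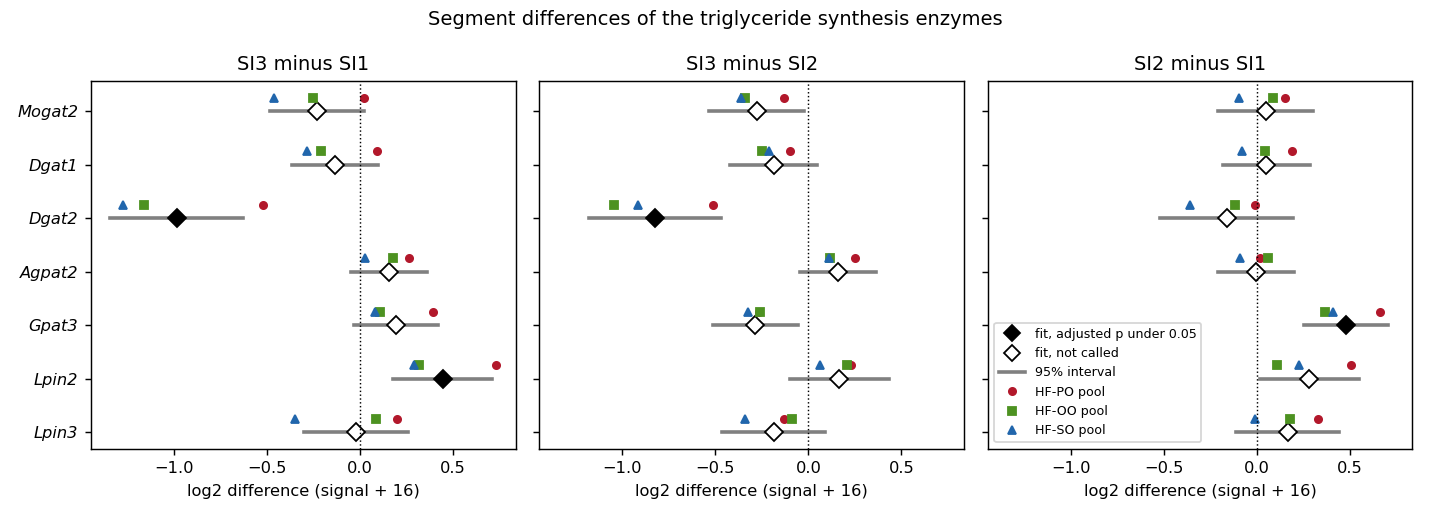
Log2 differences between segments for each enzyme (horizontal axes, log2 of signal + 16), with the limma estimate over 3 pools as a diamond (filled where the adjusted p is under 0.05), its 95% interval as a bar and the 3 diet pools as coloured points. Only Dgat2 and Lpin2 for SI3 minus SI1, Dgat2 for SI3 minus SI2 and Gpat3 for SI2 minus SI1 are filled.

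The DNA just upstream of the start is shown for the 2 enzymes called by segment that the RefSeq promoter table holds, Gpat3 and Lpin2, and for Agpat2, which was not called, so that the stretches can be set side by side. The table held 4 of the 7 enzymes with 7 annotated starts, 3 of them of Lpin2 and 2 of Lpin3; Mogat2, Dgat1 and Dgat2 are named only. Each line gives the 250 bases before the start, from RefSeq on GRCm38.p6 and on the gene's strand, with capitals at the motifs found: chr5:100845979-100846228 on the plus strand for Gpat3, chr17:71183282-71183531 on the plus strand for the first Lpin2 start, and chr2:26604418-26604667 on the minus strand for Agpat2.
Gpat3: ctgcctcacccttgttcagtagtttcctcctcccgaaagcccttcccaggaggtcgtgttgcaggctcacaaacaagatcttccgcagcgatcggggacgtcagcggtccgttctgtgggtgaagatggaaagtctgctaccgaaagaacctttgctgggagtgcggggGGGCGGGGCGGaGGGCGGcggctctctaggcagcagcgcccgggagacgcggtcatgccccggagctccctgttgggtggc
Lpin2: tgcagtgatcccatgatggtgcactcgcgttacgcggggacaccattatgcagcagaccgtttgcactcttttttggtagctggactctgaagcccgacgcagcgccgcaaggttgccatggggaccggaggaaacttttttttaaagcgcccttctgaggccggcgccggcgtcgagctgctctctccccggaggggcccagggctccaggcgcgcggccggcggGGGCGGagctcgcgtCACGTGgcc
Agpat2: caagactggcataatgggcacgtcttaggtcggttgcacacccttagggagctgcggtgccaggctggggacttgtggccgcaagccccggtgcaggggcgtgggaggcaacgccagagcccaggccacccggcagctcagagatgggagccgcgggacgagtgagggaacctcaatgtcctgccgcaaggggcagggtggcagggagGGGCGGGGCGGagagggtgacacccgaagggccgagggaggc
Searched on both strands were the E-box CACGTG, the GC box GGGCGG, the CCAAT box CCAAT, the TATA box TATAAA, the GATA site AGATAA, the nuclear receptor half-site AGGTCA and the DR1 element AGGTCANAGGTCA, which also holds the half-site. Gpat3 has 3 GC boxes, the first at -81 to -76, the second at -76 to -71, sharing 1 base with it, and the third at -69 to -64. The Lpin2 window has a GC box at -24 to -19 and an E-box at -9 to -4. Agpat2 has 2 GC boxes, at -42 to -37 and -37 to -32, again sharing 1 base. None of the 3 windows holds the letters of the other 5 motifs. Of all 32851 windows, 32.7% hold a GC box, 6.02% the E-box, 33.8% the CCAAT box, 12.4% the TATA box, 9.99% the GATA site, 14.0% the half-site and 0.0335% the DR1 element. G and C made up 64% of the Gpat3 window, 65.2% of the Lpin2 window and 69.2% of the Agpat2 window, and the median over all windows was 52.4%. The windows not printed differ: the second Lpin2 start has 1 GC box and 83.2% G and C, the third has 3 CCAAT boxes, 0 GC boxes and 44.8%, the first Lpin3 start has none of the 7 motifs, and the second has 1 GC box. A match describes these letters only.

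Over the 9 arrays, Dgat2 was the only enzyme whose signal ranged by at least 1 on the log2 scale. Among 2880 genes with such a range, its pattern was most like those of Arg2, a mitochondrial arginase, with a Pearson r of 0.99, Spns2, an exporter of sphingosine 1-phosphate, with 0.99, and Rhoc, a small GTPase, with 0.98. These are correlations over 9 arrays that share mice within a diet, given as a description. Arg2 stood at 11761, 8991 and 8330 in SI3, against 20065, 19971 and 18479 in SI2 and 20003, 21574 and 22062 in SI1, and so had the palm oil pool highest in SI3 and lowest in SI1, as Dgat2 did.

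Several other enzymes that share a step with the 7 were called between the ends of the intestine. Of the 11 other acyltransferases and phosphatases tested, 4 were higher and 4 lower in SI3 than in SI1, with a median log2 difference of 0.27. At the GPAT step, Gpam, the mitochondrial GPAT, rose by 0.45 (limma adjusted p = 0.0266), and Gpat4, another GPAT of the endoplasmic reticulum, rose by 0.48 (limma adjusted p = 0.00988), beside 0.19 for Gpat3, which was not called. At the AGPAT step, Agpat4 rose by 1.83, to 1048 ± 160 in SI3 against 283 ± 43.6 in SI1 (SD, n = 3 pools, limma adjusted p = 0.000188). Agpat3 moved the other way, with 581.0 ± 83.4 in SI3 and 1627 ± 75.5 in SI1, a fall of 1.47 (limma adjusted p = 0.000106). Agpat1 fell by 0.45 (limma adjusted p = 0.00582), and Agpat5 was not called, with a difference of 0.27 (limma adjusted p = 0.0646). Among phosphatases, Lpin1, the third lipin, was not called (0.27, 95% interval -0.08 to 0.62). Plpp3, a phosphatase of lipid phosphates in membranes, had the largest fall of the list, 1.57 (limma adjusted p = 7.16e-05). The remaining 2 calls, named after their values were seen, were a fall of 1.05 for its relative Plpp1 (limma adjusted p = 0.00173) and a rise of 0.36 for Lclat1, a lysolipid acyltransferase (limma adjusted p = 0.0192). Plpp2 was not called (0.21, limma adjusted p = 0.0907). Mogat1, a second MGAT, and Gpat2 were below the filter and not tested; Mogat1 signals lay between 10.5 and 81.7 and Gpat2 signals between 1.9 and 25.4. The 8 of 11 called stand beside 44.3% of all probe sets tested. Between SI2 and SI1, 1 of the 11 was higher and 1 lower, beside 15% of all called either way. Between SI3 and SI2, 4 were higher and 3 lower, beside 21.3%.

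**Figure D3:**
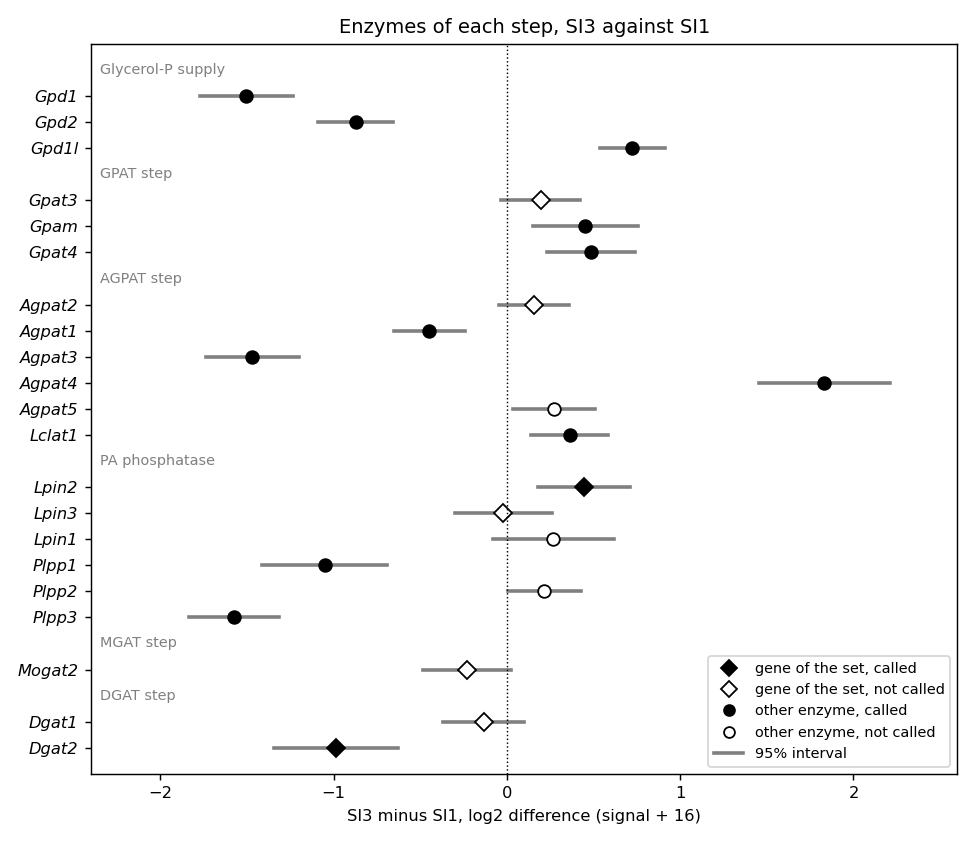
SI3 minus SI1 (horizontal axis, log2 difference of signal + 16, limma estimate over 3 pools with its 95% interval) for the enzymes of each step, with the 7 enzymes of the set as diamonds, others as circles, and filled symbols where the adjusted p is under 0.05. Agpat4 lies furthest right at 1.83, and Plpp3, Gpd1 and Agpat3 lie furthest left, at -1.57, -1.50 and -1.47.

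Genes of the lists drawn up for substrate supply to the 7 enzymes were mostly lower in SI3 where called. Of the 5 genes tested in the list for glycerol 3-phosphate, 1 was higher and 4 were lower in SI3 than in SI1. That list also holds glycerol channels and an enzyme that consumes glycerol 3-phosphate, so a lower call is not always less supply. Gpd1, which makes glycerol 3-phosphate from a glycolytic intermediate in the cytosol, stood at 4350 ± 645 in SI3 and 12267 ± 354 in SI1 (SD, n = 3 pools). This was a fall of 1.50 (limma adjusted p = 9.86e-05), while its relative Gpd1l rose by 0.72 (limma adjusted p = 0.000498). Of the 9 genes tested for fatty acyl-CoA supply, 4 were lower and 5 were not called. Acsl6, an acyl-CoA synthetase, fell most, by 3.58 (limma adjusted p = 3.54e-05), with 40.3 ± 14.2 in SI3 and 648 ± 74.9 in SI1. Of the 10 genes tested for storage and breakdown of triglyceride, 5 were lower and 5 not called, and Ces1g, a carboxylesterase, fell most, by 2.11. In the list for use of diacylglycerol or its precursor in other lipids, 5 of the 12 genes tested were higher and 4 lower. Some of the 12 act elsewhere in the phospholipid routes and do not use diacylglycerol or its precursor themselves. Dgka, a diacylglycerol kinase, rose by 0.97, and Chpt1, which makes phosphatidylcholine from diacylglycerol, fell by 1.92. Of the 13 lipid regulators tested, 3 were higher and 8 lower, led by Nr1h4, the bile acid receptor FXR, which rose by 1.95, and Pparg, which fell by 1.79. The share called either way among all probe sets in this comparison was the 44.3% given above.

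Scraped mucosa holds many cell types, and in pooled tissue fewer cells of a type and less RNA per cell cannot be told apart. Of 9 enterocyte markers tested, 2 were higher and 3 lower in SI3 than in SI1, and their summed signal overlapped, at 258850 to 315340 in SI3, 293412 to 311479 in SI2 and 275283 to 340696 in SI1. Of 7 stem and cycling cell markers, 6 were higher in SI3, with sums of 16687 to 20062 in SI3 and 10172 to 13781 in SI1. Of goblet cell markers, 7 of 8 were higher in SI3 than in SI1, with sums of 196326 to 209823 in SI3 and 125847 to 146187 in SI1, and 4 of 4 Paneth cell markers were higher. Of T and intraepithelial lymphocyte markers, 6 of 6 were lower in SI3, with sums of 4331 to 6535 in SI3 and 13483 to 17548 in SI1, and of macrophage markers 5 of 6 were lower and 1 higher. Beside these counts, 25% of all probe sets tested were called higher in SI3 than in SI1 and 19.2% lower. These marker lists, too, were chosen with earlier results of these data known. Adipocytes also carry Dgat2, Agpat2 and lipins. Of 6 adipocyte markers measured, 3 were tested: Adipoq, the hormone adiponectin, rose by 2.69 and stood at 270 to 311 in SI3, 171 to 276 in SI2 and 17.3 to 55.2 in SI1, while Cidec, a lipid droplet protein, fell by 1.43. The dimmest adipocyte marker was Lep, with signals from 2.3 to 43.7, below the filter and not tested. Detection calls were not used, so its presence was not assessed. The summed adipocyte signal was 1911 to 2906 in SI3, 2984 to 3707 in SI2 and 3075 to 3198 in SI1. The lower sum in SI3 comes from Cidec, which stood at 1180.5, 658.3 and 667.0 in SI3 of the HF-PO, HF-OO and HF-SO pools, against 2082, 2247 and 2233 in SI1. Retn, the hormone resistin, was below the filter and not tested, with 196.9, 178.6 and 157.4 in SI3 and 13.6, 15.1 and 39.1 in SI1, so that its groups did not overlap and SI3 was higher, as for Adipoq. Fabp4, a fatty acid carrier of adipocytes, had 1176, 784 and 978 in SI3 and 883, 879 and 764 in SI1, which overlap, and was not called (0.20, limma adjusted p = 0.235). Exocrine pancreas markers summed to 1095 to 1210 in SI3, 1003 to 1464 in SI2 and 38814 to 50342 in SI1. The part of any of these in the segment results was not tested.

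The diets were compared within each segment over single pools, with no test. No enzyme was set apart by diet: in each segment, 0 of 7 had 1 diet that was 1.5-fold or more above, or below, each of the others, where 5.64% of all probe sets tested did so in SI3, 4.72% in SI2 and 4.92% in SI1. The widest diet range was that of Dgat2 in SI3, 1.45-fold, with HF-PO minus HF-OO at 0.36, HF-PO minus HF-SO at 0.53 and HF-OO minus HF-SO at 0.17 on the log2 scale. Lpin2 followed with 1.36-fold in SI3 and 1.34-fold in SI2, both times with HF-PO highest and HF-OO lowest. The narrowest range was that of Mogat2 in SI2, 1.03-fold.

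The palm oil pool took opposite places at the ends of the intestine. In SI3 it was the highest of the 3 diets for 6 of the 7 enzymes, all but Lpin3, where 32.1% of all probe sets tested had it highest. In SI1 it was the lowest for 6 of the 7, all but Lpin2, where 34.4% of all probe sets had it lowest. For 5 of 7 both held, against 11.3% of all probe sets. The 7 enzymes are bright, and among the 4987 probe sets with a mean between the dimmest and the brightest of them the 3 shares were 42.1%, 39.7% and 17.4%. The signal of HF-PO, less the average of the olive and safflower oil pools on the log2 scale, had a median over the 7 of 0.23 in SI3 (0.06 to 0.45), 0.03 in SI2 (-0.02 to 0.28) and -0.13 in SI1 (-0.27 to -0.03), and the medians of all probe sets tested were -0.02, -0.01 and 0.00. Medians of the equally bright probe sets were 0.02, 0.01 and -0.01. The safflower oil pool was the lowest of the 3 for 6 of 7 enzymes in SI3 and 5 of 7 in SI2, where 29.2% and 31.4% of all probe sets had it lowest, and the highest for 5 of 7 in SI1, where 34.4% did. Shares among equally bright probe sets are not given here for the safflower oil pool. All 7 are read from the same 3 arrays per segment, so these counts describe 3 pools and not 7 independent measurements. They also use only the brightest probe set of each gene, and dimmer ones did not all follow. In SI3 the palm oil pool was lowest in the second Dgat1 probe set, at 508 against 572 in HF-OO and 564 in HF-SO. It was also lowest in the dimmest Lpin2 probe set, at 153.9 against 185.9 and 161.5. In the second Dgat2 probe set and the remaining Lpin2 probe sets it was highest.

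**Figure D4:**
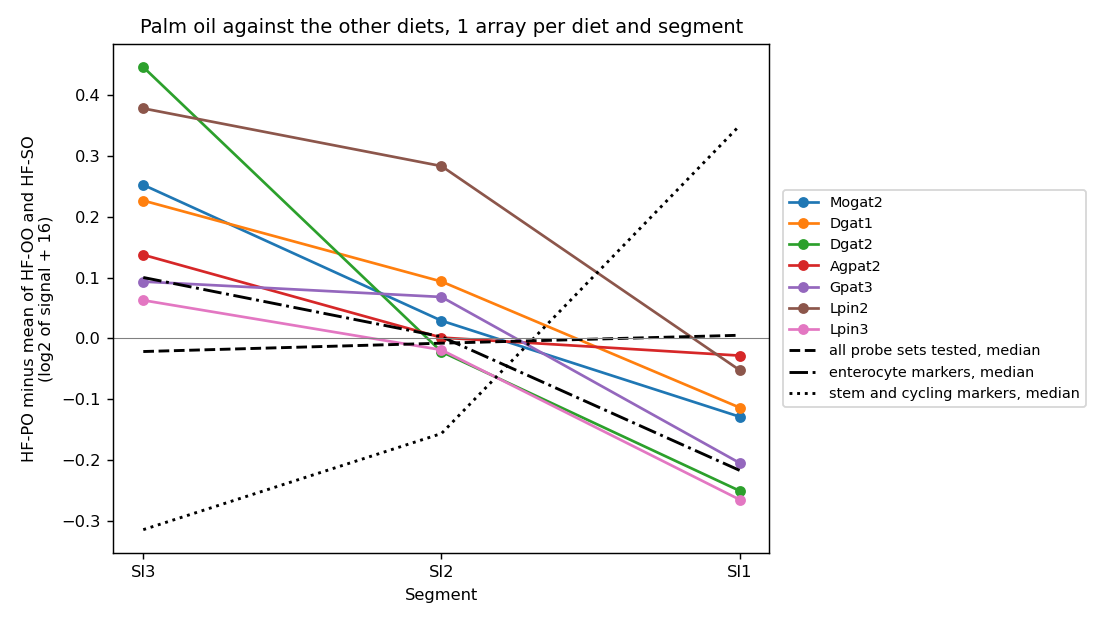
Palm oil pool less the average of the olive and safflower oil pools (vertical axis, log2 of signal + 16) in SI3, SI2 and SI1 for each of the 7 enzymes, with 1 array per diet and segment, and the medians of all probe sets tested, of 9 enterocyte markers and of 7 stem and cycling markers as broken lines. The enzymes run from 0.06 to 0.45 in SI3 and from -0.27 to -0.03 in SI1; the enterocyte median has the same signs, at 0.10 and -0.22, and the stem and cycling median the opposite ones, at -0.31 and 0.35.

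Markers of cell types moved in the same arrays. The palm oil pool was the highest of the 3 diets for 6 of 9 enterocyte markers in SI3 and the lowest for 9 of 9 in SI1. Their summed signal was 315340, 288439 and 258850 in SI3 of the HF-PO, HF-OO and HF-SO pools and 275283, 317157 and 340696 in SI1. In SI3 the higher sum of the palm oil pool lay mostly in Fabp1 and Apoa4, a fatty acid carrier and an apolipoprotein. Fabp1 had 37792, 17101 and 14700 there and Apoa4 31924, 25043 and 18678, while Anpep, Apoa1 and Fabp2 were highest in the olive oil pool. For 7 stem and cycling cell markers the order was turned: the palm oil pool was the lowest for 6 in SI3 and the highest for 6 in SI1. It was also the lowest for 3 of 4 Paneth cell markers in SI3 and the highest for 4 of 4 in SI1. Of tuft cell markers it was the lowest for 3 of 3 in SI3, and of smooth muscle markers for 6 of 7 in SI2. In SI1 it was the highest for 9 of 9 exocrine pancreas markers, with sums of 50342, 38814 and 40842 in HF-PO, HF-OO and HF-SO, and for 6 of 6 T and intraepithelial lymphocyte markers, with sums of 17548, 13483 and 14380. The lymphocyte markers had the palm oil pool highest for 3 of 6 in SI3 and 6 of 6 in SI2. Adipocyte markers had it highest for 3 of 3 tested in SI3, 3 of 3 in SI2 and 2 of 3 in SI1. Goblet cell markers had it lowest for 6 of 8 in SI1 and 3 of 8 in SI3. The part of these cell types in the diet pattern of the 7 enzymes was not tested. Of all probe sets tested, 32.1% had the palm oil pool highest in SI3 and 34.4% had it lowest in SI1. The shares for its other places are not given here, so the marker counts for those places are a description only. Among the other tested genes of the pathway lists, HF-PO set apart Aqp3, a glycerol channel, and Slc27a2, an acyl-CoA synthetase of very long chains. Aqp3 stood at 863.8 in SI3, against 436.0 in HF-OO and 412.7 in HF-SO, and at 1920 in SI2, against 1227 and 1135. Slc27a2 stood at 2302.5 in SI3, against 1159 and 1198. Of all probe sets tested, 0.888% were set apart above both other diets in the HF-PO pool of SI3 and 0.413% in that of SI2. Below the filter and not tested, Fitm1 of the storage and breakdown list and Dgki, a diacylglycerol kinase, were also that far above. Fitm1 had 270.5 in SI3, against 54.6 in HF-OO and 42.6 in HF-SO, and 106 in SI2, against 42.5 and 43.4. Dgki had 38.9 in SI3, against 15.5 and 11.8. Of the marker genes tested, HF-PO set apart Cidec, Cela2a, Fabp1, Gip, Ccl5 and Onecut2 upwards in SI3 and Ctrl and Ccl5 in SI2. Downwards it set apart Cel and Pou2f3 in SI3, S100g, Slc10a2 and Fgf15 in SI2, and Pyy and Cybrd1 in SI1, where 1.65%, 1.19% and 1.23% of all probe sets tested lay below both other diets by that much. Cela2a, Onecut2 and Cel in SI3 and Slc10a2 in SI2 had every signal below the lowest array median, 94.4. They passed the filter through another segment. Ctrl, S100g and Fgf15 in SI2 and Pou2f3 in SI3 also had a signal below it, so these differences are between weak signals.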

How the data were processed

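Affymetrix arrays were hybridised with RNA pooled from 6 mice per diet and segment, per the labels. The deposited values are signal intensity, 1 per probe set and array, on a linear scale, computed by the authors with MAS5, per the submitters' processing notes, with no version given there; the 2% trimmed mean of each array is 500. Detection calls were not used here. Of 45101 probe sets, 64 array controls were left out. The platform annotation named 1 gene for 34945 probe sets, several for 932 and none for 9160; a RefSeq table of genes held 34741 of these, with 0 symbols renamed.

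Signals were analysed as log2(signal + 16). Fold changes are on that scale. Probe sets with a mean at or above the median of all, 6.80, entered the tests, 22519 in all. The segment comparison was a linear model in limma 3.58.1 (R 4.3.3) on segment and diet pool, with variances moderated by empirical Bayes, two-sided tests, Benjamini-Hochberg adjustment over the probe sets tested and a call at an adjusted p under 0.05. Per the labels, 1 set of 6 mice gave all 3 segments of a diet, hence the block. Deviations from the segment means correlated with r from -0.05 to 0.15 within a pool and from -0.13 to 0.05 between pools. The residual has 4 degrees of freedom. Diets have 1 array per segment, so no p-value was computed for them. The model was also run on simulated data with known changes in SI3. Their spread was taken from the fit to these arrays, and they held no diet or pool effect.

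All 7 enzymes are described in full. Of the other pathway lists, the genes named are the largest rise and fall between SI3 and SI1, 9 enzymes that share a step with the 7 (Mogat1, Gpam, Gpat2, Gpat4, Agpat1, Agpat3, Agpat4, Agpat5 and Lpin1), and genes set apart in HF-PO; for Dgat2, the 3 genes with the highest Pearson correlation are named. The 7 enzymes and all lists were chosen with earlier results of these data known. Alternatives were other pseudocounts, filters, quantile normalisation, no block, a variance trend, each pool left out, the other probe sets of a gene and, chosen after seeing the data, a background of equally bright probe sets. Python 3.11.15, numpy 2.4.6, pandas 2.3.3, scipy 1.17.1 and matplotlib 3.10.9 were used.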

Additional observations from a re-analysis of the deposited data

Results flagged for a closer look

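In 7 of the 21 pairings of an enzyme with a segment comparison, 1 diet pool moved the opposite way to both others. With 1 pool per diet the difference between diets was not tested, and none of these 7 comparisons passed the threshold for a call. For SI3 minus SI1, the log2 difference of Mogat2 was 0.023 in the HF-PO pool, against -0.25 in HF-OO and -0.46 in HF-SO. That of Dgat1 was 0.093 in the HF-PO pool, against -0.21 in HF-OO and -0.29 in HF-SO. That of Lpin3 was -0.35 in the HF-SO pool, against 0.20 in HF-PO and 0.09 in HF-OO. For SI2 minus SI1, the HF-SO pool was the one apart each time: Mogat2 was at -0.10, against 0.15 in HF-PO and 0.09 in HF-OO. Dgat1 was at -0.077, against 0.19 and 0.04 in the same order. Agpat2 was at -0.088, against 0.02 and 0.06, and Lpin3 was at -0.011, against 0.33 and 0.18.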

How the results depend on the processing

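Each segment rests on 3 pools that also differ in diet, each diet on 1 pool per segment, and MAS5 signals carry no depth; signal over background was not used here. Only the fall of Dgat2 in SI3 relative to SI1 passed the threshold under all alternatives run, its second probe set included. Without the diet pool as a block, the same numbers of the 7 enzymes were called, 2 for SI3 against SI1, 1 for SI2 against SI1 and 1 for SI3 against SI2, among 10178, 3823 and 5136 probe sets. With no filter, the calls among the 7 were 1, 0 and 0; leaving out 1 pool gave 1, 0 and 0 to 1; and 3 were called for SI3 against SI2 with a filter at the upper quartile and with a variance trend (Dgat2, Mogat2 and Gpat3). Calls among all probe sets were 9969, 3375 and 4787 for the 3 pairs and 9154 for the F test. With no filter the last 3 became 604, 1681 and 4666, where more probe sets are tested, and with 1 pool left out they were 537 to 811, 1317 to 2394 and 3680 to 5769; the first was 5551 without the HF-OO pool, 6478 without the HF-SO pool and 7581 without the HF-PO pool. Probe sets set apart by diet numbered 1271 in SI3, 1063 in SI2 and 1109 in SI1; a pseudocount of 64 gave 613, 507 and 493, no filter 11558, 10902 and 11529, and a 2-fold limit 235, 162 and 198, with 0 of the 7 enzymes in each. Values that changed sign were all of uncalled comparisons except those of Lpin2 between SI3 and SI1. For SI2 minus SI1, leaving out 1 pool gave -0.0049 to 0.12 for Mogat2, -0.018 to 0.12 for Dgat1 and -0.036 to 0.039 for Agpat2, quantile normalisation gave 0.027 for Agpat2, and the dimmer Dgat1 probe set gave -0.41. For SI3 minus SI1, leaving out 1 pool gave -0.13 to 0.14 for Lpin3. A dimmer Lpin2 probe set gave -0.17, -0.072 and -0.10, and another -0.61, -0.49 and -0.12, for SI3 minus SI1, SI2 minus SI1 and SI3 minus SI2; the cause was not tested. HF-PO was lowest in SI1 for 5 of 7 enzymes after quantile normalisation and highest in SI3 for 6.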
